A study of Mus musculus with 6 samples.

Results

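The genes described here are 42 genes of DNA replication and repair, chosen by symbol from the 21720 symbols of an RNA-seq table of H22 tumours. All 42 were present in the table, had counts above 0 in all 6 libraries and passed the filter on low counts, so that no member is missing from the 14963 genes tested. H22 is a mouse hepatocellular carcinoma line, wild type in the labels, which was injected under the skin of female BALB/c mice aged 6 to 8 weeks. Once tumours had reached about 50 mm3, the control group received 0.5% carboxymethyl cellulose sodium and the luteolin group received 200 mg/kg luteolin, a plant flavonoid, both by gavage in 0.2 mL once a day for 21 days. There were 3 libraries of whole tumour tissue per group. They are numbered as in the labels, values are given in the order of replicates 1, 2 and 3, and the labels do not say whether each library came from a separate mouse. The comparison asks what luteolin treatment changed in the tumours.

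Before a cell copies its DNA, the origin recognition complex with Cdc6 and Cdt1 loads the ring of Mcm2 to Mcm7, the replicative helicase, onto origins of replication. Cdc45 and the GINS complex join the ring and make it active, and DNA polymerases α, δ and ε then copy the strands, held on the template by the Pcna clamp, which the Rfc complex loads. Deoxynucleotides come from ribonucleotide reductase, thymidylate synthase and thymidine kinase, and damaged or stalled forks are handled by the Atr and Chek1 kinases, by homologous recombination, by the Fanconi pathway and by mismatch repair. Many of these genes are known targets of E2F transcription factors, which act at the entry into S phase, and their transcripts are abundant in dividing cells, tumour cells and activated lymphocytes alike.

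Promoters are shown because the genes were examined as a set that is transcribed together in cycling cells. RefSeq promoter sequence (GRCm38.p6) was at hand for 33 of the 42 genes, and the 250 bases before the start of each were searched on both strands for 4 E2F words, TTTCCCGC, TTTCGCGC, TTTGCCGC and TTTGGCGC. At least 1 word occurred before 9 of the 33 genes (27.3%), against 583 of all 27025 genes with a promoter sequence (2.16%). The CCAAT word occurred before 20 of the 33 (60.6%, against 37.5% of all genes), and the cell cycle homology words TTTGAA and TTCGAA before 6 of the 33 (18.2%, against 19.6%). The last 150 bases before the start are given for 4 genes that hold an E2F word, 3 of which (Mcm6, Cdc6 and Orc1) are among the lower genes described below, with the E2F words in capitals. They lie at chr1:128359706-128359855 on the minus strand for Mcm6, chr11:98908001-98908150 on the plus strand for Cdc6, chr4:108579304-108579453 on the plus strand for Orc1 and chr5:151651209-151651358 on the minus strand for Rfc3.
Mcm6: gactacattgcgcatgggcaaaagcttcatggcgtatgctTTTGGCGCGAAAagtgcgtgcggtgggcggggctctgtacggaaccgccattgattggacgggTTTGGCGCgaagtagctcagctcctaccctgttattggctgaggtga
Cdc6: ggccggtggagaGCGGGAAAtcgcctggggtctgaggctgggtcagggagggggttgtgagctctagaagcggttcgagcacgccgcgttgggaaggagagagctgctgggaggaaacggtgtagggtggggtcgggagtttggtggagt
Orc1: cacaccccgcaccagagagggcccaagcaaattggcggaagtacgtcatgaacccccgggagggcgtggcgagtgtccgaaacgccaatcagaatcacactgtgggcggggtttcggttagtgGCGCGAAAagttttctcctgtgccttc
Rfc3: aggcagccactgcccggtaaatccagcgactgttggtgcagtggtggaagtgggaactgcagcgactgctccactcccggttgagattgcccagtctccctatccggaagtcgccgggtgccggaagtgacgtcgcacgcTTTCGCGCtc
Mcm6 held 3 matches, of which the pair farthest from the start overlap within 1 run of capitals. An E2F word was found for 3 of the 11 genes with a promoter sequence that were lower in the luteolin group at an unadjusted p under 0.05, and for 6 of the 22 others.

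Levels are given as CPM, which are counts scaled by the normalized total of their library. Total counts ran from 61081637 to 80442954 per library, but low values gather at multiples of 4, so that a count of 1 may stand for less than 1 read pair. The summed level of 9 skin keratinocyte markers was 4.09, 4.34 and 3.23 CPM in the control libraries and 373, 8785 and 15.6 CPM in the luteolin libraries. All 7 that were tested were higher at an unadjusted p under 0.05 in edgeR. Luteolin replicate 2 stands apart from the rest in this sum. Marker lists of other cells moved in both directions. In edgeR, 13.9% of all genes tested were higher and 6.5% lower at an unadjusted p under 0.05, the background for every count here. All 9 T cell markers were higher at an unadjusted p under 0.05, with summed levels of 15.2 to 18.5 CPM in the control libraries and 54.7 to 103 CPM in the luteolin libraries, and so were 8 of 9 macrophage markers (982 to 1150 against 1531 to 2281 CPM) and 6 of 7 fibroblast markers (1431 to 1607 against 2075 to 5060 CPM). A smaller share of markers passed that p in the lists that follow. For neutrophils 4 of 6 were higher (18.7 to 21.2 against 76.6 to 181 CPM), and for endothelial cells 3 of 6 (82.1 to 99.9 against 101 to 265 CPM). For B cells 2 of 5 were higher (2.70 to 4.90 against 6.63 to 25.1 CPM), and for adipocytes 0 of 5 (31.4 to 95.3 against 44.4 to 302 CPM). Erythroid markers lay lower, from 27.0 to 35.5 CPM in the control libraries and from 8.21 to 23.7 CPM in the luteolin libraries, with 5 of 5 tested below 0 and 1 lower at that p. Skeletal muscle markers overlapped, with 528 to 1143 against 253 to 1091 CPM, 7 of 8 below 0 and 1 lower. The 12 hepatocyte and hepatoma markers, which bear on the tumour cells themselves, summed to 369 to 432 CPM in the control libraries and 209 to 362 CPM in the luteolin libraries. Of the 10 tested, 2 were lower (Trf, 294 to 347 against 122 to 283 CPM, and Afp, 43.4 to 66.7 against 32.7 to 41.8 CPM) and 1 was higher, while 8 had log2 fold changes above 0 and the median was 1.60, so that the sum and the median differ in sign. Alb ran from 0.868 to 133 CPM over the libraries, and Hnf4a, a defining factor of hepatocytes, did not exceed 0.327 CPM in any and was thus at or near 0. In whole tumour tissue, fewer cycling cells and less RNA per cycling cell cannot be told apart, and the part of other cells in the values below was not tested.

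As a group, the 42 genes lay lower in the luteolin tumours, by a modest amount. The log2 fold change was below 0 for 37 of the 42 (88.1%), against 50.7% of all genes tested, and its median was -0.34, or 0.791-fold, against -0.01 over all genes. At an unadjusted p under 0.05, 12 genes were lower (28.6%, against a background of 6.5% of all genes tested) and 0 were higher (background 13.9%). They were Orc1, Cdc6, Mcm6, Mcm10, Cdc45, Tyms, Brca1, Rad54l, Fanci, Msh6, Ccne1 and Ccne2. In 19 of the 42 genes every luteolin library lay below every control library (45.2%, background 12.8%), and in 0 did every luteolin library lie above (background 15.9%).

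No gene of the 42 passed an adjusted p of 0.05 in edgeR's quasi-likelihood test, where 0.18% of all genes tested were lower and 1.32% higher at that level, and the smallest adjusted p of a member was 0.11. DESeq2 called 4 of the 42 lower at an adjusted p under 0.05 (Tyms, Brca1, Ccne1 and Ccne2, background 2.83%) and 13 at an unadjusted p under 0.05 (background 7.98%). limma's voom with sample quality weights called 20 lower at an adjusted p under 0.05 (background 8.76%) and 26 at an unadjusted p under 0.05 (background 17.3%). Both tools called 0 higher, where the background was 9.5% for DESeq2 and 12.6% for voom after adjustment and 15.1% and 19.3% before it. Adding a fold change over 2 to the unadjusted p, as the study did, left 2 lower genes in edgeR (Brca1 and Ccne2, background 1.5%) and 0 higher (background 11.2%). The count of lower genes was 0 without control replicate 3 (background 0.91%), 0 without luteolin replicate 2 (1.84%), 1 without luteolin replicate 1 (1.19%) and 4 without luteolin replicate 3 (1.95%).

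**Figure D1:**
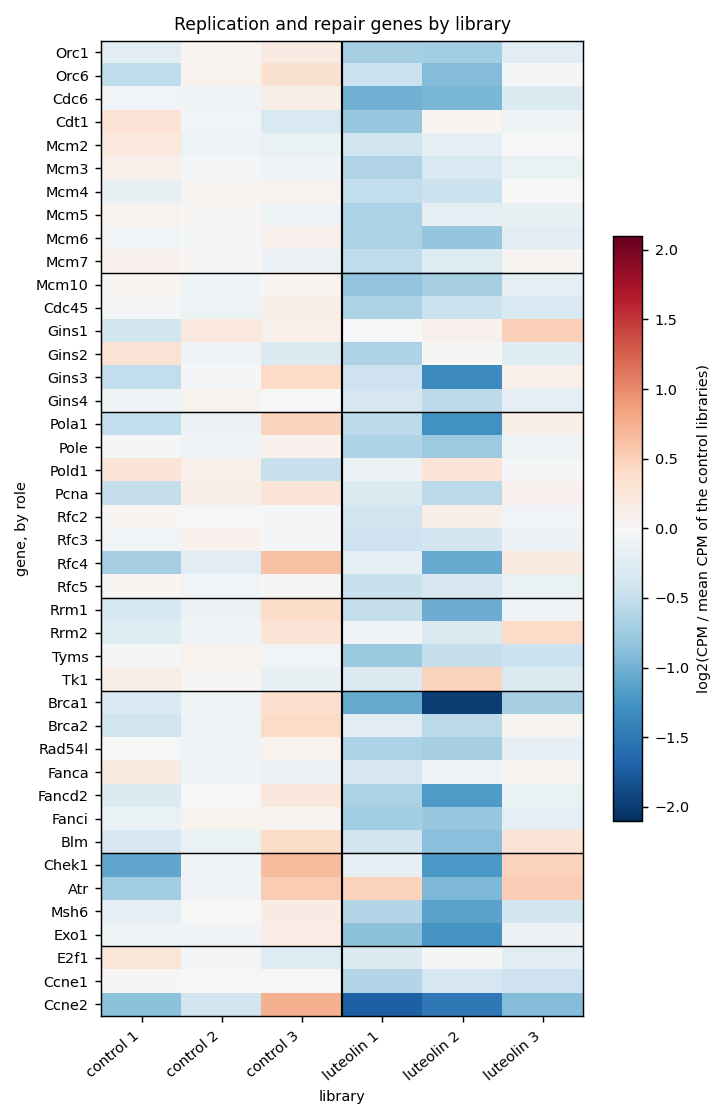
Level of each of the 42 genes (rows, by role) in each of the 6 libraries (columns), as log2 of CPM over the mean CPM of the 3 control libraries. Blue cells, lower than the control mean, fill most of the columns of luteolin replicates 1 and 2 and are paler in luteolin replicate 3.

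The luteolin libraries were unlike each other. The median of the 42 genes, as log2 of CPM over the control mean, was -0.53, -0.56 and -0.13 in the luteolin libraries, against -0.08, -0.05 and 0.10 in the controls. Luteolin replicate 3 had the highest value of the luteolin libraries for 35 of the 42 genes. It lay below every control library for 21 genes, luteolin replicate 1 for 32 and luteolin replicate 2 for 34. The share of all genes tested that lay below every control in a single luteolin library was not measured. These 3 counts therefore describe the libraries and have no background. Without luteolin replicate 3, 21 genes were lower at an unadjusted p under 0.05 (background 5.91%). Without luteolin replicate 1 there were 3 (background 3.47%), and without luteolin replicate 2 there were 5 (background 5.75%). Leaving out control replicates 1, 2 or 3 gave 8, 4 and 4 genes (backgrounds 4.2%, 2.74% and 4.5%).

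Within the licensing genes, which prepare origins before S phase, all 10 had log2 fold changes below 0, with a median of -0.34, and 5 had groups that did not overlap (background 12.8%). Mcm6, a subunit of the helicase ring, had 315, 316 and 349 CPM in the control libraries and 206, 187 and 280 CPM in the luteolin libraries. Its groups did not overlap, with luteolin replicate 3 the nearest to the controls. The log2 fold change was -0.54 (SE, standard error, of 0.18, adjusted p = 0.17 in edgeR). Cdc6, which helps to load the ring, had 49.1, 48.6 and 56.2 CPM in the control libraries and 25.4, 26.3 and 42.2 CPM in the luteolin libraries. Luteolin replicate 3 again lay between the other luteolin libraries and the controls, and the log2 fold change was -0.71 (SE 0.24, adjusted p = 0.166 in edgeR). Orc1, the largest subunit of the origin recognition complex, had 21.4, 26 and 28.5 CPM against 15.7, 15.2 and 21.4 CPM. The groups were separate by less than 0.1 CPM, and the log2 fold change of -0.54 (SE 0.22) had a 95% interval from -1.07 to -0.01.

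The other subunits of the helicase ring were lower by less than Mcm6. Mcm3 had 184, 168 and 159 CPM in the control libraries and 109, 136 and 154 CPM in the luteolin libraries, and Mcm5 had 136, 131 and 119 CPM against 80.8, 112 and 115 CPM. In both the groups did not overlap, although the highest luteolin library lay close to the lowest control library, and the log2 fold changes were -0.35 (95% interval -0.75 to 0.04) and -0.32 (-0.74 to 0.09). For Mcm4, Mcm7 and Mcm2 the groups overlapped and the log2 fold changes were -0.31, -0.23 and -0.19, with 95% intervals that reached 0.12, 0.20 and 0.23. Per kilobase of the longest annotated transcript, Mcm6 was the most abundant subunit in 5 of the 6 libraries, the exception being luteolin replicate 2, where Mcm7 was. The ratio of the highest to the lowest subunit on this scale lay between 2.09 and 2.55 in the control libraries and between 1.74 and 1.98 in the luteolin libraries. Orc6 and Cdt1, the partner of Cdc6 in loading, overlapped between the groups, with log2 fold changes of -0.43 (95% interval -1.13 to 0.27) and -0.24 (-0.89 to 0.41).

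Helicase activation was represented by Mcm10, Cdc45 and the GINS subunits, of which 5 of 6 had log2 fold changes below 0. Cdc45, which binds the ring and travels with it, had 59.1, 56.2 and 66.1 CPM in the control libraries and 38, 44.2 and 48.3 CPM in the luteolin libraries. Every luteolin library was below every control library, and the log2 fold change was -0.47 (SE 0.16, adjusted p = 0.174 in edgeR). Mcm10, which supports the start of unwinding, had 75.9, 68.9 and 75.8 CPM against 41.6, 45.3 and 64 CPM, again without overlap, with a log2 fold change of -0.55 (SE 0.20, adjusted p = 0.189 in edgeR). The GINS subunits, which form 1 complex, did not share a value. Gins4 had log2 fold change -0.36 (95% interval -0.75 to 0.04) without overlap, and Gins2 had -0.26 (-0.83 to 0.31) with overlap. Gins3 had -0.44 (-1.38 to 0.51), which became -0.11 without luteolin replicate 2, -0.19 without control replicate 3 and -0.85 without luteolin replicate 3. Gins1 was the only subunit above 0, at 0.21 (95% interval -0.40 to 0.82).

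**Figure D2:**
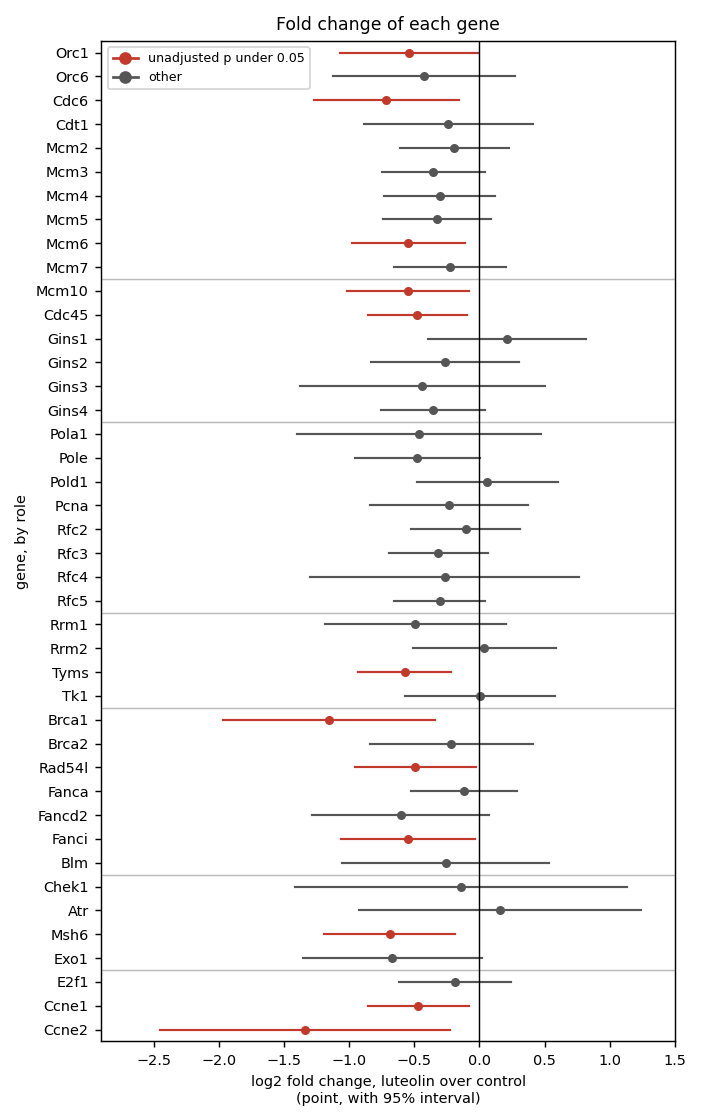
Log2 fold change of each of the 42 genes (points) with its 95% interval (lines) from edgeR, on a horizontal axis where negative values are lower in the luteolin group. The 12 genes in red had an unadjusted p under 0.05, all are below 0, and the points run from -1.34 for Ccne2 to 0.21 for Gins1.

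Among the polymerases, the clamp and its loader, 7 of 8 genes had log2 fold changes below 0, with a median of -0.29. At an unadjusted p under 0.05, 0 were lower (background 6.5%) and 0 higher (background 13.9%). With 8 genes, 0 lower is near the share over all genes. Pole, the catalytic subunit of the leading-strand polymerase ε, had 95.4, 92 and 104 CPM in the control libraries and 62, 56.9 and 90.3 CPM in the luteolin libraries. The groups did not overlap, although luteolin replicate 3 lay just below the controls, and the log2 fold change was -0.48 (95% interval -0.96 to 0.01). Rfc3 and Rfc5, subunits of the clamp loader, had -0.32 and -0.31, also without overlap. Pcna, the clamp, was the most abundant of the 42 genes per kilobase of transcript, at 107 CPM per kilobase in the control group. It had 115, 177 and 196 CPM against 132, 110 and 174 CPM, so that the groups overlapped, and its log2 fold change of -0.23 had a 95% interval from -0.84 to 0.38. Pold1, the catalytic subunit of the lagging-strand polymerase δ, had 74.6, 66.7 and 44.8 CPM against 57.1, 76.1 and 61.1 CPM, with no direction shared by the libraries. Pola1, Rfc4 and Rfc2 overlapped as well, with log2 fold changes of -0.46 (95% interval -1.40 to 0.47), -0.26 (-1.30 to 0.77) and -0.11 (-0.52 to 0.31). That of Pola1 was -0.16 without control replicate 3 or luteolin replicate 2 and -0.90 without luteolin replicate 3.

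The 4 genes of nucleotide synthesis divided. Tyms, thymidylate synthase, had 88.4, 94.8 and 86.1 CPM in the control libraries and 52.1, 63.2 and 65.7 CPM in the luteolin libraries. Its luteolin libraries lay far below the controls for the spread within each group. The log2 fold change was -0.57 (SE 0.15, adjusted p = 0.11 in edgeR), the smallest adjusted p of the 42 genes, and DESeq2 gave an adjusted p of 0.00766. Leaving out any 1 library, the log2 fold change of Tyms stayed between -0.69 and -0.48 with an unadjusted p under 0.05 each time. Tk1, thymidine kinase of the salvage route to the same nucleotide, had 72.2, 66.7 and 58.8 CPM against 53.9, 91 and 53.6 CPM. Luteolin replicate 2 was the highest of all libraries for Tk1 and the other luteolin libraries were the lowest, so that the log2 fold change was 0.01 (95% interval -0.57 to 0.58). Of the subunits of ribonucleotide reductase, Rrm1 had a log2 fold change of -0.49 (95% interval -1.19 to 0.20) and Rrm2 of 0.04 (-0.51 to 0.59), both with overlap.

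Recombination and crosslink repair held the member with the second lowest fold change. Brca1, which promotes repair of double-strand breaks by homologous recombination, had 99.2, 115 and 156 CPM in the control libraries and 59.4, 31.1 and 76.2 CPM in the luteolin libraries. Every luteolin library was below every control library, with the lowest value in luteolin replicate 2. The group levels were 124 ± 29.5 and 55.5 ± 22.8 CPM (SD, n = 3 each), and the log2 fold change was -1.15 (SE 0.34, adjusted p = 0.139 in edgeR). It stayed between -1.48 and -0.85, with an unadjusted p under 0.05, when each library was left out in turn. Brca2, which acts in the same repair, had 35, 43.3 and 61.4 CPM against 39.9, 31.9 and 48.7 CPM. Its groups overlapped, and the log2 fold change was -0.21 (95% interval -0.84 to 0.41). Rad54l, a motor protein of homologous recombination, had 39.8, 38.1 and 41.8 CPM against 25.1, 24.7 and 35.4 CPM, a log2 fold change of -0.49 (95% interval -0.96 to -0.03) without overlap. In the Fanconi pathway, which repairs crosslinks between strands, Fanci had 28.5, 33.1 and 32.5 CPM against 18.9, 18.2 and 27.3 CPM, a log2 fold change of -0.55 (95% interval -1.06 to -0.04) without overlap. Its partner Fancd2 had -0.61 (95% interval -1.28 to 0.07) with overlap, Fanca had -0.12, and the helicase Blm had -0.26.

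Of the mismatch repair genes, Msh6, which recognises mispaired bases, had 195, 221 and 248 CPM in the control libraries and 144, 101 and 167 CPM in the luteolin libraries. The groups did not overlap, and the log2 fold change was -0.69 (SE 0.21, adjusted p = 0.15 in edgeR). Exo1, the exonuclease that removes the mispaired strand, had 67, 67.7 and 79.7 CPM against 39.3, 30.2 and 65.4 CPM, a log2 fold change of -0.67 (95% interval -1.36 to 0.02). The checkpoint kinases had wide intervals. Atr had 36.2, 56.6 and 86.5 CPM against 83.3, 31 and 85.7 CPM, and Chek1 had 14.3, 28.9 and 48 CPM against 27, 13.2 and 42.5 CPM. For both kinases the libraries of a group spread over more than 2-fold and the groups overlapped. The 95% interval of the log2 fold change ran from -0.92 to 1.24 for Atr and from -1.42 to 1.13 for Chek1. Both intervals hold 0, so that the direction was not resolved for either kinase.

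The cyclins E, which drive entry into S phase with Cdk2, were both lower, while E2f1 was not separated. Ccne1 had 30, 29.4 and 29.6 CPM in the control libraries and 19.3, 23.1 and 21.9 CPM in the luteolin libraries. The spread was small in both groups and they did not overlap, with a log2 fold change of -0.47 (SE 0.16, adjusted p = 0.183 in edgeR). Ccne2 was the least abundant of the 42 genes by CPM, with 7.96, 11.1 and 24.1 CPM against 4.41, 5.06 and 7.62 CPM. Its groups did not overlap, but control replicate 3 was far above the other controls, and the log2 fold change of -1.34 (SE 0.47, adjusted p = 0.183 in edgeR) had a 95% interval from -2.45 to -0.22. Without control replicate 3 it was -0.74. E2f1 had 88.8, 72.6 and 61.4 CPM against 60.8, 72 and 62.7 CPM, and its log2 fold change was -0.19 (95% interval -0.62 to 0.24).

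Part of the spread among replicates followed base composition. The GC content of the longest annotated transcript of the 42 genes ran from 36.3% (Ccne2) to 61% (Pold1), with a median of 47.3% against 49.9% over all genes tested with a known value. Across the 42 genes, which share their libraries and are not independent, each library's departure from the 6-library mean was ranked against GC content. Spearman's rho was 0.72, -0.22 and -0.80 for the controls and -0.33, 0.73 and -0.54 for the luteolin libraries. Over 14635 genes tested, rho had the same sign in each library. It was 0.42, -0.17 and -0.52 for the controls and -0.175, 0.43 and -0.36 for the luteolin libraries, so the pattern was not particular to the 42 genes. Genes of low GC content, such as Atr, Chek1, Rfc4 and Pola1, were thus low in control replicate 1 and luteolin replicate 2 and high in control replicate 3. The correlation of GC content with the log2 fold change between the groups was weak, 0.18 over the 42 genes and over all genes tested alike. With a GC content and length term for each library, 17 of the 42 genes were lower at an unadjusted p under 0.05 (background 11.3%), including the 12 above, and 0 were higher (background 16.1%). In that fit Brca1 had a log2 fold change of -1.11 (SE 0.25, adjusted p = 0.0479 in edgeR) and was the only member lower at an adjusted p under 0.05 (background 1.69%), with 0 higher (background 4.74%).

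**Figure D3:**
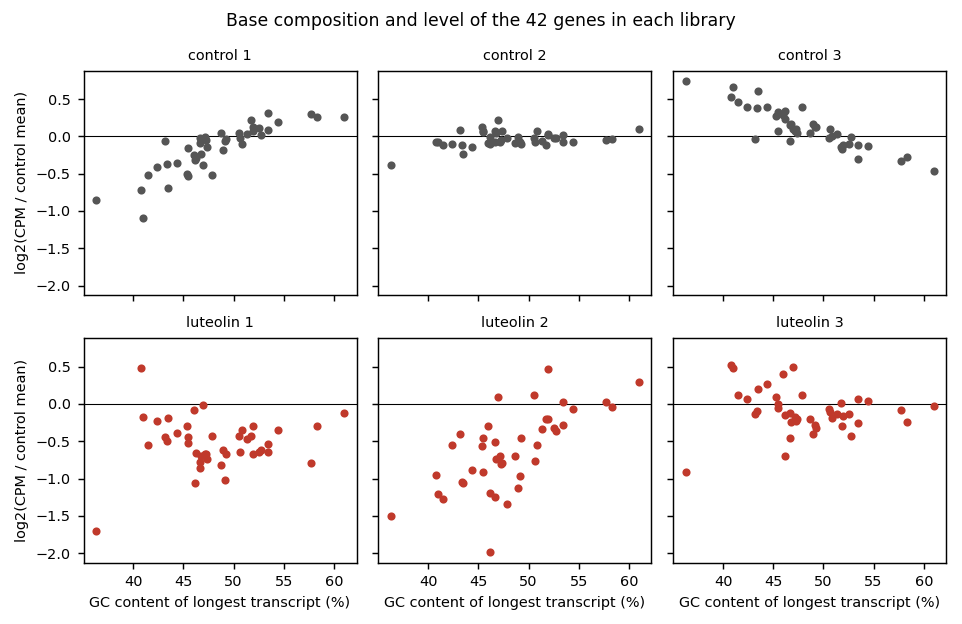
GC content of the longest transcript (horizontal, %) against log2 of CPM over the control mean (vertical) for the 42 genes in each of the 6 libraries. The points climb with GC content in control replicate 1 and luteolin replicate 2 and descend in control replicate 3, and most points of luteolin replicates 1 and 2 lie below 0.

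Of 165 other genes of the same pathways, 164 were tested, and 130 of these had log2 fold changes below 0 (79.3%) with a median of -0.23. At an unadjusted p under 0.05, 20 were lower and 2 higher (Ccnd2 and Shmt2, against 13.9% of all genes higher). The lower genes made up 12.2%, where the 42 genes had 28.6% and all genes 6.5%. The difference between these shares was not tested. At the fork, 5 of 28 genes were lower, led by Prim2, the large subunit of primase, with 89, 89.2 and 92 CPM against 52, 44.6 and 66 CPM (log2 fold change -0.73, adjusted p = 0.0965 in edgeR) and by Dna2, a nuclease of lagging-strand processing, with -0.66 (adjusted p = 0.0986). Slx4, a scaffold for nucleases in crosslink repair, had 85.2, 74.2 and 76.9 CPM against 46.1, 46.4 and 49.5 CPM, with luteolin libraries that were close to each other and far below the controls. Its log2 fold change was -0.73 (SE 0.14, adjusted p = 0.0577 in edgeR) and lay between -0.81 and -0.65 in every alternative run.

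Other lists of repair, checkpoint, nucleotide synthesis and origin genes were also examined. The counts of lower genes that follow are to be read against 6.5% of all genes tested. Of 8 end joining genes, which rejoin broken ends without a template, 3 were lower, among them Xrcc6 (log2 fold change -0.44) and Lig4 (-0.81). The count was 1 of 20 for excision repair (Ddb1, -0.43), 2 of 11 for other checkpoint genes (Atm, -0.84, and Trp53bp1, -0.37), 1 of 22 for other recombination genes (Mre11a, -0.50), 1 of 11 for other Fanconi genes (Slx4) and 2 of 18 for other nucleotide synthesis genes (Paics, -0.58, and Mthfd1, -0.36). Among 14 other origin genes 0 were lower at an unadjusted p under 0.05 in edgeR, where Mcm8 had -0.51 and Mcmbp -0.17. The genes with the second smallest p of their lists included Rad51d (-0.48), Fan1 (-0.32) and Apex1 (-0.36), none of them at an unadjusted p under 0.05. Several of these counts (1 of 20, 1 of 22, 1 of 11 and 2 of 18) lie near the share over all genes.

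Of 26 other genes at the entry into S phase, 4 were lower at an unadjusted p under 0.05 (background 6.5%) and 1 was higher, a smaller share than the 13.9% of all genes. The 4 were Cdkn2b, an inhibitor of the cyclin D kinases (log2 fold change -0.68), Cdkn2a (-0.72), Ccnd3 (-0.73) and the repressor E2f7 (-0.47). Ccnd2, cyclin D2, had 16.5, 18.7 and 15 CPM in the control libraries and 38.8, 74.6 and 44.7 CPM in the luteolin libraries. It rose by 1.65 on the log2 scale (SE 0.28, adjusted p = 0.0474 in edgeR), the only gene of these lists with an adjusted p under 0.05. With a library left out the adjusted p ran from 0.0297 to 0.208, and it was under 0.05 without luteolin replicate 2 but not without any of the other 5 libraries. The 2 related cyclins had other values, with log2 fold changes of -0.20 for Ccnd1, the most abundant of them by CPM, and -0.73 for Ccnd3.

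**Figure D4:**
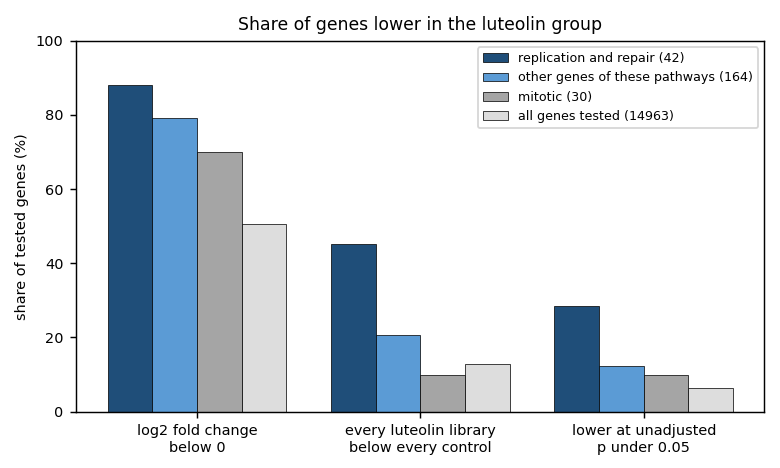
Share of tested genes (%) with a log2 fold change below 0, with every luteolin library below every control library, and lower at an unadjusted p under 0.05, for the 42 genes, 164 other genes of these pathways, 30 mitotic genes and all 14963 genes tested. The 42 genes have the tallest bar in each set, at 88.1%, 45.2% and 28.6%.

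Mitotic genes, which act later in the cycle and are transcribed in the same cells, were compared to see where the replication genes differ. Of 30 mitotic genes, 21 had log2 fold changes below 0 (70%), with a median of -0.20, and 3 were lower at an unadjusted p under 0.05 (10%, near the 6.5% of all genes), with 0 higher (background 13.9%). Mki67, a marker of cycling cells, had 559, 701 and 868 CPM in the control libraries and 482, 352 and 536 CPM in the luteolin libraries (log2 fold change -0.64, 95% interval -1.18 to -0.10). Top2a and Anln, the most abundant mitotic genes beside it by CPM, had -0.54 (95% interval -1.29 to 0.20) and -0.16 (-1.06 to 0.74). In each library the mean log2 CPM of the mitotic genes was subtracted from that of the 42 genes. This difference was -0.48, -0.60 and -0.59 for the controls and -0.84, -0.66 and -0.72 for the luteolin libraries. The replication and repair genes were thus lower relative to the mitotic genes in each luteolin library than in any control, although luteolin replicate 2 and control replicate 2 differed by little. The difference between the groups was not tested.

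Counting limits apply to some of the values. In the GENCODE annotation, 14 of the 42 genes share exon bases with a gene on the opposite strand that is listed in the table, among them 5 of the 12 lower genes: Cdc45 (with Ufd1), Rad54l (with Lrrc41), Fanci (with Polg), Msh6 (with Fbxo11) and Ccne2 (with Ints8). Gins2 shares 2758 bases with Gse1, the longest overlap. The strand setting of the counting is not given in the sources used here, so that reads within the shared bases cannot be told apart. The shared stretch is short for Msh6, at 34 bases, and the share of reads that it holds was not measured for any pair.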

How the data were processed

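RNA-seq libraries of control and 200 mg/kg luteolin tumours were analysed, 3 per group, and 0 columns were left out. The deposited table holds a whole number for each symbol and library, with no scaling between libraries. These were used as estimated counts, since 44.8% of values from 1 to 40 are multiples of 4 where an even spread gives 1 in 4. The submitters' processing notes name bcl2fastq 2.0, HISAT2, StringTie and DESeq2 and the builds rn6 and mm39 without roles. Counting settings are not given in the sources used here.

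Counts were compared in R 4.3.3 with edgeR 4.0.16 (TMM, filterByExpr, robust quasi-likelihood test, two-sided, no covariates, Benjamini-Hochberg adjustment over all 14963 genes tested). P values measure the spread between these libraries, which may be technical. CPM are counts scaled by the TMM-normalized library total. Transcript length and GC content came from the longest GENCODE M21 transcript of each symbol (GRCm38), known for 21053 symbols, and promoters from RefSeq GRCm38.p6. No genome positions were taken from the deposited table.

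The 42 genes and all other lists were chosen with earlier results of these data known. Named beside the 42 were, in each other list of these pathways, the 2 genes with the smallest p and any with an adjusted p under 0.05, and the 3 most abundant genes of the mitotic list and of the hepatocyte and hepatoma list. The rule also covers the other marker lists, which are given as sums and counts only. E2f7, Shmt2, Ccnd1, Ccnd3, Cdkn2a and Hnf4a fall outside this rule and were chosen after their values were seen. Some genes that the rule names are not reported here.

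Alternatives were DESeq2 1.42.0, limma 3.58.1 voom with sample quality weights, RLE and upper-quartile normalization, no filter, a minimum of 10 counts per library, a replicate block, a GC content and length offset (natural splines with 4 and 3 degrees of freedom per library), that offset with the block, values divided by 4, and each library left out. Added after the data were seen were the offset without length and the offset without luteolin replicate 2. The fits were tested on simulated data.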

Additional observations from a re-analysis of the deposited data

How the results depend on the processing

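The median log2 fold change of the 42 genes stayed below 0 in all 18 alternatives, from -0.56 without luteolin replicate 3 to -0.27 without luteolin replicate 2. The 12 genes lower at an unadjusted p under 0.05 had negative values in all 18, and 2 of them (Tyms and Brca1) kept that p with each library left out. The number of lower genes at this p was 12, moving to 26 with voom (background 17.3%) and 21 with the GC content and length offset plus the replicate block (background 8.72%), and it ran from 3 (without luteolin replicate 1) to 21 (without luteolin replicate 3) with each library left out. The offset without luteolin replicate 2 gave 1 higher gene (Atr) at this p (2.38%, background 14.8%). At an adjusted p under 0.05 the count of lower genes was 0 in edgeR (background 0.18%). It was 4 with DESeq2 (background 2.83%), 20 with voom (8.76%) and 1 with the GC content and length offset (1.69%). That offset without luteolin replicate 2 also gave 1 (background 1.69%). Each count of 1 (2.38% of the 42 genes) lies near its background. The cause of the moves in these counts was not tested.

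Signs turned for genes with log2 fold changes between -0.26 (Rfc4) and 0.21 (Gins1), none with an unadjusted p under 0.05. Tk1, at 0.01, had -0.0091 with DESeq2 and with RLE, -0.26 with voom, -0.025 without a filter, -0.036 with the replicate block, -0.070 with the GC content and length offset, -0.066 with the GC offset alone, -0.089 with the GC offset and the block, and -0.23 with the offset without luteolin replicate 2. Voom gave -0.033 for Gins1, -0.14 for Pold1, 0.036 for Rfc4, 0.019 for Chek1 and 0.070 for Anln. Chek1 had 0.0016 with the offset and block, 0.0035 with the GC offset alone and 0.20 with the offset without luteolin replicate 2, where Anln had 0.14. With each library left out, the log2 fold change ran from -0.0033 to 0.33 for Gins1, -0.13 to 0.18 for Pold1, -0.21 to 0.030 for Rfc2, -0.59 to 0.18 for Rfc4, -0.23 to 0.20 for Rrm2, -0.28 to 0.13 for Tk1, -0.41 to 0.034 for Brca2, -0.62 to 0.35 for Chek1, -0.10 to 0.52 for Atr and -0.46 to 0.17 for Anln.

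A pairing of the libraries by replicate number was not seen. The deviations of same-numbered libraries from their group means correlated at -0.196, -0.092 and 0.063. Luteolin replicates 1 and 2 correlated best with a control of another number, and luteolin replicate 3 with control replicate 3. With 3 libraries per group, such correlations cannot settle whether the libraries were paired. With the replicate block, 13 of the 42 genes were lower at an unadjusted p under 0.05 (background 4.79%), and the adjusted p of Ccnd2 was 0.0831. All 42 genes passed the filter, so counting members above 0 changed nothing. No member had under 4.41 CPM in any library.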

Other observations

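Within-library ratios of related members are given here, chosen after their values were seen and with no test. Brca1 and Brca2 act in the same repair pathway, and the log2 ratio of their CPM was 1.5, 1.41 and 1.35 in the controls, in replicate order, and 0.57, -0.04 and 0.65 in the luteolin libraries, so that the ratio was lower in every luteolin library. Rrm1 and Rrm2, the large and small subunits of ribonucleotide reductase, had log2 ratios of 1.05, 1.14 and 1.27 in the control libraries and of 0.76, 0.42 and 0.67 in the luteolin libraries, again without overlap. For the cyclins E the log2 ratio of Ccne2 to Ccne1 was -1.92, -1.41 and -0.30 in the control libraries and -2.13, -2.19 and -1.53 in the luteolin libraries, and here the groups overlapped.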
